A study of Mus musculus with 2 samples.

Results

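The insulin-like growth factor (IGF) axis was described here by 10 genes: the ligand genes Igf1 and Igf2, the receptor genes Igf1r and Igf2r, and the binding protein genes Igfbp2 to Igfbp7. They were chosen by symbol through their Ensembl identifiers in GENCODE M21, and each symbol matched a single identifier among the 55536 genes of the deposited table. The study compared 2 libraries of mammary tumor RNA from MMTV-PyVT mice. One came from treatment with cyanidin-3-glucoside (C3G), an anthocyanin pigment of berries, and the other from treatment with the vehicle dimethyl sulfoxide (DMSO). Both carry the same transgene, polyoma virus middle T antigen under the mouse mammary tumor virus promoter, which is active mainly in mammary epithelium. Dosing started when ductal hyperplasia appeared, and tumors were collected at a set tumor burden rather than at a set time. The age, the dose and the number of mice or tumors behind each library were not stated in the sources used here.

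IGF1 and IGF2 are small secreted growth factors related to insulin. Both act through the tyrosine kinase receptor IGF1R, whereas IGF2R, which is also the cation-independent mannose 6-phosphate receptor, takes up IGF2 and carries it to lysosomes. The binding proteins hold IGFs in blood and matrix, and proteases that cut them set the ligand free. In the mammary gland IGF1 comes largely from the stroma and acts on the epithelium, and IGFBP5 is known from the regressing gland after lactation.

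Levels are given in TPM, an abundance corrected for gene length and scaled to the same total in each library. The values were whole multiples of 1 read once multiplied by gene length, which gave 16081110 assigned reads in the C3G library and 12192275 in the DMSO library. Each range in parentheses after a ratio is an exact 95% interval from those reads and covers counting error only. With 1 library per group no test between treatments was possible, and the spread between tumors is unknown. The log2 ratio below is log2((C3G TPM + 1)/(DMSO TPM + 1)), so a positive value means higher with C3G. Genes that reached 5 TPM in either library and differed by 1 or more on this scale, a 2-fold difference, are called higher or lower by size.

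Of the 10 genes, 8 reached 5 TPM in at least 1 library, Igf1r lay just under that level, and Igf2 was listed at 0 in both. Only Igfbp2 was called by size, as lower in the C3G library. That is 1 of 8 genes called lower, beside 4.30% of the 12780 genes that reached 5 TPM, and 0 of 8 called higher, beside 3.10%. The median log2 ratio of the 8 genes was -0.15, and that of the 12780 genes was 0.13. The counting interval of the ratio lay wholly below 1 for 4 of the 8 (20.7% of all 12780 genes), wholly above 1 for 2 (42.2%), and held 1 for 2.

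**Figure D1:**
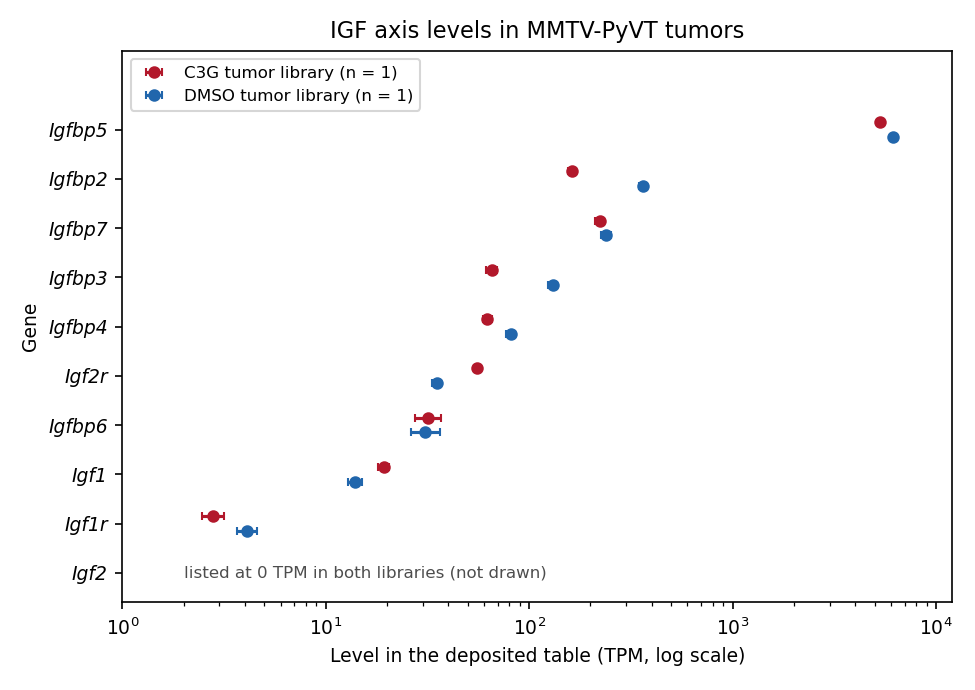
Level of each IGF axis gene (TPM, log scale) in the C3G library and, beneath it, the DMSO library, with 1 library each. Bars are exact Poisson 95% intervals from the reads. Igfbp5 lay far above the others at 5316 TPM with C3G and 6134 TPM with DMSO, and Igfbp2 and Igfbp3 show the widest gaps among the binding protein genes.

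Igfbp5 was by far the most abundant gene of the axis in both libraries. It stood at 5316 TPM in the C3G library, rank 16 among all genes, and at 6134 TPM in the DMSO library, rank 13. The C3G level was 1.15-fold lower (1.15 to 1.16). Of the summed level of the 6 binding protein genes, 5860 TPM in the C3G library and 6975 TPM in the DMSO library, Igfbp5 supplied 90.7% with C3G and 87.9% with DMSO. Without Igfbp5, the sum of the remaining 5 was 544 TPM in the C3G library and 842 TPM in the DMSO library, 1.55-fold lower. IGFBP5 binds both IGFs and the extracellular matrix.

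Igfbp2 showed the widest difference among the 10 genes. IGFBP2 is a secreted carrier that also contacts integrins through an RGD motif. Its gene (mm10 chromosome 1, 72824503 to 72852474, plus strand) stood at 162 TPM in the C3G library (1645 reads) and 362 TPM in the DMSO library (2895 reads). It was 2.23-fold lower with C3G (2.10 to 2.37). Its log2 ratio of -1.15 was undercut by 416 of the 12780 genes, or 3.26%. Igfbp2 was the second most abundant binding protein gene in the DMSO library but the third in the C3G library, where Igfbp7 lay above it. The level of Igfbp7 over that of Igfbp2 was 1.37 (1.28 to 1.47) in the C3G library and 0.659 (0.616 to 0.704) in the DMSO library.

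Igfbp3, whose protein is the main IGF carrier of blood, came next. The gene (chromosome 11, 7206086 to 7213923, minus strand) stood at 65.4 TPM in the C3G library (1125 reads) and 130 TPM in the DMSO library (1768 reads). It was 1.99-fold lower with C3G (1.85 to 2.15), and its log2 ratio of -0.98 fell just short of a call. Of the 12780 genes, 4.36% had a lower log2 ratio. Centring all log2 ratios on the median of well-measured genes, 0.12, took Igfbp3 to -1.10, past the threshold. In the C3G library Igfbp3 and Igfbp4 were level within counting error, with a quotient of 1.05 (0.971 to 1.13), whereas in the DMSO library Igfbp3 was 1.61 times Igfbp4 (1.5 to 1.72).

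The other binding protein genes differed less. Igfbp4, whose protein is a substrate of the protease PAPP-A, stood at 62.3 TPM in the C3G library and 81.0 TPM in the DMSO library, 1.30-fold lower (1.21 to 1.40). Igfbp7, which encodes a matrix protein that binds IGFs weakly, stood at 222 TPM with C3G and 238 TPM with DMSO, 1.07-fold lower (0.994 to 1.16). Igfbp6, whose protein prefers IGF2, stood at 31.9 TPM with C3G and 30.9 TPM with DMSO, a ratio of 1.03 (0.830 to 1.29). For these last 2 genes the interval held 1, so no difference was detectable at this depth. Of the 6 binding protein genes, 5 had log2 ratios below 0 (38.0% of the 12780 genes did), with Igfbp6 at 0.04 and a median of -0.29 over the 6. After centring all 6 lay below 0, with Igfbp6 at -0.075 and a median of -0.41, and so did 49.5% of the 12780 genes.

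**Figure D2:**
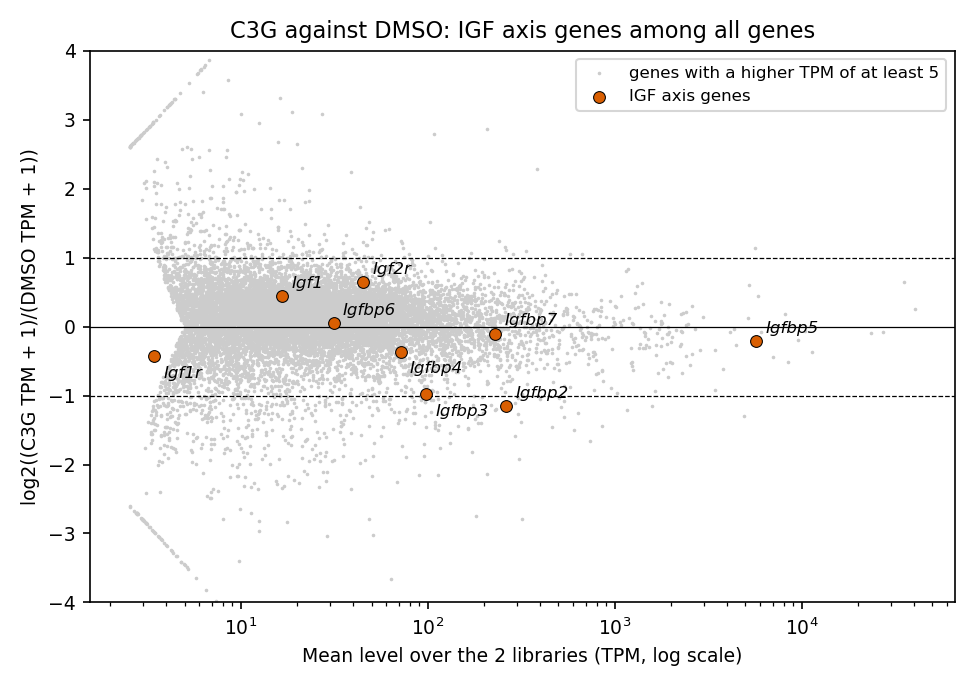
Log2 ratio of C3G over DMSO against mean TPM (log scale) for the 12780 genes that reached 5 TPM (grey, with a few points beyond the axis not drawn) and for the 9 IGF axis genes above 0 (orange). Dashed lines mark a log2 ratio of 1 in size. Igfbp2 lies beyond the lower line, Igfbp3 on its inner edge, and Igf2r highest of the axis at 0.64.

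The promoters of Igfbp2 and Igfbp3 are shown because these binding protein genes had the 2 lowest log2 ratios of the axis. Each line holds the 250 bases before a RefSeq start (build GRCm38.p6), 5′ to 3′ on the gene's own strand. For Igfbp2, which has 2 starts in that table, the upstream one is shown, chr1:72824230-72824479 on the plus strand. The Igfbp3 stretch is chr11:7213924-7214173 on the minus strand. Capitals mark matches, on either strand, to 4 motifs: the TATA box TATAAA, the GC box GGGCGG, the CCAAT box CCAAT and the forkhead site GTAAACA.
Igfbp2: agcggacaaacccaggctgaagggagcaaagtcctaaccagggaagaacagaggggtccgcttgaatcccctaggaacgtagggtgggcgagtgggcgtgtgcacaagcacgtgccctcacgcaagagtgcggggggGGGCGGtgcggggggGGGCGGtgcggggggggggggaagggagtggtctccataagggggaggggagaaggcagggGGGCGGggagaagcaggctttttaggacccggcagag
Igfbp3: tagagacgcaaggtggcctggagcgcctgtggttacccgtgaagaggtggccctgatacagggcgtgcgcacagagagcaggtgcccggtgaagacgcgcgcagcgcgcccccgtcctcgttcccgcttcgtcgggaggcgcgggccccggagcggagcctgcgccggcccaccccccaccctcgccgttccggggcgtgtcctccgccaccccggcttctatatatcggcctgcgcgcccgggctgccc
The Igfbp2 stretch held 3 GC boxes and 14 CpG dinucleotides. The Igfbp3 stretch held none of the 4 motifs as spelled above. It held 32 CpG dinucleotides, with 73.2% of its bases G or C. The medians were 6 CpG and 52.4% over the 32851 promoter windows of the table. Of those windows 32.7% held a GC box, 12.4% a TATA box, 33.8% a CCAAT box and 3.17% a forkhead site. Each match is a run of letters and says nothing about binding.

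The ligand gene Igf1 (chromosome 10, 87858265 to 87937042) stood at 19.3 TPM in the C3G library (1051 reads) and 14.0 TPM in the DMSO library (600 reads). The C3G level was 1.38-fold higher (1.25 to 1.53). Its log2 ratio of 0.44 was exceeded by 19.98% of the 12780 genes. Long genes had higher ratios in this pair of libraries, where genes were ordered by exon length into 10 equal classes. The median log2 ratio was 0.20 in the class of the longest genes, to which Igf1 belongs, and -0.25 in the class of the shortest. With the median of its class subtracted, the log2 ratio of Igf1 was 0.24. In TPM, Igfbp5 exceeded Igf1 by 275-fold (259 to 293) in the C3G library and 439-fold (405 to 476) in the DMSO library.

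Igf2 (chromosome 7, 142650766 to 142666816) was listed at 0 in both libraries, with no read. The table does not settle whether its RNA was absent. Of the 5723 exon bases of Igf2, 62.8% also belong to Gm49394, an overlapping gene on the same strand, and these include nearly all of the last exon, 3284 of 3287 bases. Gm49394 was listed at 0 as well, as was the antisense gene Igf2os. How reads that fit more than 1 gene were counted was not stated in the sources used here. The 2029 exon bases shared with no other gene give a limit, taken as 3 reads. For RNA that carries all of them, a count of 0 allows up to 0.269 TPM with C3G and 0.341 TPM with DMSO. They lie in separate exons, 1 of which has 109 bases, so a transcript that carries only some of them could stand higher. The imprinted neighbour of Igf2, H19, is a long noncoding RNA gene. It was measured at 40.9 TPM in the C3G library and 48.9 TPM in the DMSO library, 1.20-fold lower with C3G (1.06 to 1.35).

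The receptor genes differed in opposite directions. Igf2r (chromosome 17, 12682406 to 12769664) stood at 55.4 TPM in the C3G library (2836 reads) and 35.1 TPM in the DMSO library (1417 reads), 1.58-fold higher with C3G (1.48 to 1.68). Its log2 ratio of 0.64 was exceeded by 9.19% of the 12780 genes. Igf2r also belongs to the class of the longest genes. Its log2 ratio was 0.45 with the median of that class subtracted and 0.52 after centring. Igf1r (chromosome 7, 67952827 to 68233668) stood at 2.80 TPM in the C3G library (258 reads) and 4.11 TPM in the DMSO library (299 reads), 1.47-fold lower with C3G (1.24 to 1.74). The fold of Igf1r is understated on the log2 scale, where its ratio was -0.43 with a pseudocount of 1 TPM, -0.54 with 0.1 TPM and -0.22 with 5 TPM. Igf1r had the lowest level among the 9 genes above 0 in both libraries.

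The level of Igf2r over that of Igf1r within a library was 19.8 (17.5 to 22.6) in the C3G library and 8.55 (7.54 to 9.72) in the DMSO library. A quotient within a library does not move with the scaling between libraries, and the intervals did not overlap. Insr, the insulin receptor gene, lay outside the naming rule and is given because its protein forms hybrids with IGF1R. It stood at 13.4 TPM in the C3G library and 10.2 TPM in the DMSO library. Its level was 4.80 times that of Igf1r with C3G (4.18 to 5.52) and 2.48 times with DMSO (2.16 to 2.86).

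The receptor promoters are shown for the same reason, as the pair that differed in opposite directions, with capitals for the same motifs. The Igf2r stretch is chr17:12769707-12769956 on the minus strand, and the Igf1r stretch is chr7:67952007-67952256 on the plus strand. Both RefSeq starts lie upstream of the gene bounds given above. The bases after them were not found near the start of a GENCODE M21 transcript of either gene.
Igf2r: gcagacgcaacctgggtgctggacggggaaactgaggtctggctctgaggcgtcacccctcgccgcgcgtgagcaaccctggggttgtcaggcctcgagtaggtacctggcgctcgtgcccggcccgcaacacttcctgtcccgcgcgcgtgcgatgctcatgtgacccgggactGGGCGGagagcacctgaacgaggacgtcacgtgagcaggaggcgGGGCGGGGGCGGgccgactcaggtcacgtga
Igf1r: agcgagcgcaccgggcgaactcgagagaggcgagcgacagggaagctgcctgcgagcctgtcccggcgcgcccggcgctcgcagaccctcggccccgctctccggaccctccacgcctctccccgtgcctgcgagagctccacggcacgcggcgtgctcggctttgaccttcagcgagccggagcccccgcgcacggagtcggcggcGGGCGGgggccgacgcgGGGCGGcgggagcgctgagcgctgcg
Igf2r held 3 GC boxes and 27 CpG dinucleotides, and Igf1r held 2 GC boxes and 42 CpG dinucleotides. Neither stretch held a TATA box, a CCAAT box or a forkhead site as spelled above. Both lay well above the median CpG count of 6.

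In order of level, the C3G library had Igfbp5, Igfbp7, Igfbp2, Igfbp3, Igfbp4, Igf2r, Igfbp6, Igf1 and Igf1r. Within that order only the neighbours Igfbp3 and Igfbp4 could not be told apart by their counting intervals. The DMSO library had Igfbp5, Igfbp2, Igfbp7, Igfbp3, Igfbp4, Igf2r, Igfbp6, Igf1 and Igf1r, and only Igf2r and Igfbp6 could not be told apart, with a quotient of 1.14 (0.959 to 1.35). These levels divide by the length of all annotated exons of a gene, which is longest for Igf1r at 16791 bases.

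Around the axis, 56 further genes were set out in 7 lists, of which 42 reached 5 TPM. One was called higher and 1 lower in the C3G library, beside 3.10% and 4.30% of the 12780 genes. The median log2 ratio of the 42 was 0.14, near the 0.13 of all genes that reached 5 TPM, and 25 lay above 0 (62.0% of all did).

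The gene called lower was Stc2, for stanniocalcin 2, an inhibitor of PAPP-A. It stood at 8.93 TPM in the C3G library and 37.4 TPM in the DMSO library, 4.19-fold lower (3.63 to 4.84). Only 121 of the 12780 genes had a lower log2 ratio than its -1.95. Htra1, a secreted serine protease, stood at 23.5 TPM with C3G and 41.4 TPM with DMSO, 1.77-fold lower (1.54 to 2.02). These were the only genes of 6 in the list of binding protein proteases and their inhibitors to reach 5 TPM. The paralogue Stc1 stood at 4.25 TPM with C3G and 4.23 TPM with DMSO. Pappa, the gene of the protease itself, rested on 7 reads in the C3G library and 1 in the DMSO library, with a ratio interval of 0.710 to 249.

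The gene called higher was Irs2, an adaptor that links the IGF1 and insulin receptors to PI3-kinase. It stood at 29.2 TPM in the C3G library and 13.5 TPM in the DMSO library, 2.16-fold higher (1.92 to 2.44). Its log2 ratio of 1.06 was 0.94 after centring, under the threshold. Irs1, its close relative, stood at 6.19 TPM with C3G and 3.78 TPM with DMSO, 1.64-fold higher (1.34 to 2.00), and shares 30.9% of its exon bases with Gm9747. Grb14, an adaptor that inhibits the insulin receptor, stood at 5.62 TPM with C3G and 11.3 TPM with DMSO, 2.00-fold lower (1.69 to 2.38). Its log2 ratio was -0.89, or -1.01 after centring. Of the 12 genes in this list 9 reached 5 TPM, with 5 log2 ratios above 0 (62.0% of the 12780 genes) and 4 below.

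**Figure D3:**
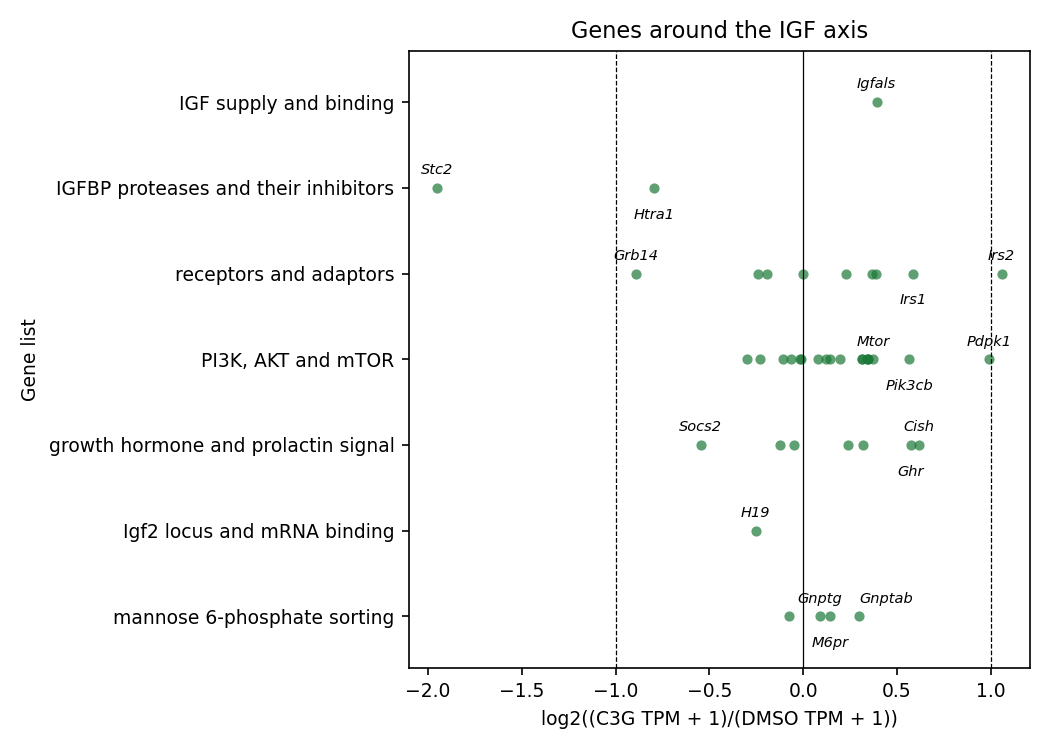
Log2 ratio of C3G over DMSO for the 42 genes around the IGF axis that reached 5 TPM, by list, with 1 point per gene. Names are given for the genes chosen by the naming rule, so Insr is not labelled. Dashed lines mark a log2 ratio of 1 in size. Stc2 at -1.95 stands furthest from 0, and Irs2 at 1.06 is the only gene beyond the upper line.

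Further down the pathway none of the 18 PI3-kinase, AKT and mTOR genes was called by size. Of the 18, 12 had log2 ratios above 0 (62.0% of the 12780 genes did). Their median was 0.17, beside 0.13 for the 12780 genes. Pdpk1, the kinase that activates AKT, stood at 15.3 TPM in the C3G library and 7.21 TPM in the DMSO library, 2.12-fold higher (1.87 to 2.41), with a log2 ratio of 0.99. The PI3-kinase catalytic subunit gene Pik3cb stood at 27.3 TPM with C3G and 18.1 TPM with DMSO. Mtor, a kinase that controls protein synthesis and growth, stood at 13.8 TPM with C3G and 10.4 TPM with DMSO, 1.33-fold higher (1.18 to 1.49).

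None of the 7 growth hormone and prolactin signal genes was called, and 4 were above 0 (62.0% of the 12780 genes were). Ghr, the growth hormone receptor, stood at 27.7 TPM in the C3G library and 18.3 TPM in the DMSO library, 1.51-fold higher (1.38 to 1.66). Its feedback inhibitors went both ways. Cish stood at 8.53 TPM with C3G and 5.21 TPM with DMSO, and Socs2 at 31.0 TPM with C3G and 45.6 TPM with DMSO, 1.47-fold lower (1.38 to 1.58).

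The mannose 6-phosphate list, which holds the other receptor of the route that IGF2R serves, differed less than Igf2r. M6pr stood at 204 TPM in the C3G library and 185 TPM in the DMSO library, 1.10-fold higher (1.06 to 1.15). Igf2r over M6pr was 0.272 (0.260 to 0.285) with C3G and 0.190 (0.179 to 0.202) with DMSO. Gnptab, which adds the mannose 6-phosphate tag, stood at 12.5 TPM with C3G and 9.96 TPM with DMSO. Gnptg, which shares 49.5% of its exon bases with Unkl, stood at 46.9 TPM with C3G and 44.1 TPM with DMSO.

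Igfals, whose protein joins IGF1 and IGFBP3 in the large complex of blood, stood at 23.2 TPM in the C3G library and 17.4 TPM in the DMSO library, 1.33-fold higher (1.13 to 1.57). It is best known from liver, and the hepatocyte markers Alb, Apoa1, Ttr and Serpina1a summed to 0.766 TPM with C3G and 0 with DMSO. Ins1, Ins2 and Igfbp1 were listed at 0 in both libraries. The Igf2 mRNA-binding genes Igf2bp1, Igf2bp2 and Igf2bp3 were all under 1 TPM in both libraries.

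Cell type markers differed between the same libraries, and in bulk RNA fewer cells of a type and less RNA per cell cannot be told apart. For the counts below, 3.10% of the 12780 genes were called higher and 4.30% lower. A marker counted if either library reached 5 TPM, so some passed only through the library where they stood higher. Of 10 adipocyte markers 9 reached 5 TPM and all 9 were called higher with C3G. Of those 9, Cidec, Retn, Plin1 and Pparg reached 5 TPM in the C3G library only. The 10 adipocyte markers summed to 1451 TPM in the C3G library and 266 TPM in the DMSO library. The 10 endothelial markers summed to 112 TPM with C3G and 47.8 TPM with DMSO, with 5 of 9 called higher. Of those 5, Tie1, Tek and Cldn5 reached 5 TPM in the C3G library only. Flt1, under 5 TPM in both libraries, stood at 3.96 TPM with C3G and 4.32 TPM with DMSO. The 8 luminal markers summed to 5080 TPM with C3G and 7124 TPM with DMSO, with 2 of 6 called lower and 1 above 0. The 8 myoepithelial markers summed to 577 TPM with C3G and 1118 TPM with DMSO, with 3 of 8 called lower. Those 3 were Acta2, Cnn1 and Myh11, whereas 2 of the 8 lay above 0 and were not called. Krt5 stood at 48.4 TPM with C3G and 36.2 TPM with DMSO, and Trp63 at 14.9 TPM with C3G and 11.9 TPM with DMSO. The 8 T cell markers summed to 18.0 TPM with C3G and 59.9 TPM with DMSO, with 3 of 3 called lower. Of these 3, Cd2 (11 reads with C3G and 53 with DMSO) and Trac (18 and 40) reached 5 TPM in the DMSO library only. Under 5 TPM in both libraries, Cd3e and Cd8a had log2 ratios of -1.31 and -1.61. Cd3d, Cd3g and Cd4, also under 5 TPM, had log2 ratios of -0.84, -0.70 and -0.68, short of a 2-fold difference. The 10 fibroblast markers summed to 1495 TPM with C3G and 1761 TPM with DMSO, with 0 of 9 called. The 5 pericyte markers summed to 44.4 TPM with C3G and 32.3 TPM with DMSO, with 0 of 2 called. The 8 macrophage markers summed to 946 TPM with C3G and 1099 TPM with DMSO, with 0 of 8 called. No marker of these lists was at 0 in either library. The 5 skeletal muscle markers summed to 29.1 TPM with C3G and 22.2 TPM with DMSO, nearly all of it myoglobin (Mb), and Ckm was listed at 0 in both. The part of these markers in the IGF axis differences was not tested.

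**Figure D4:**
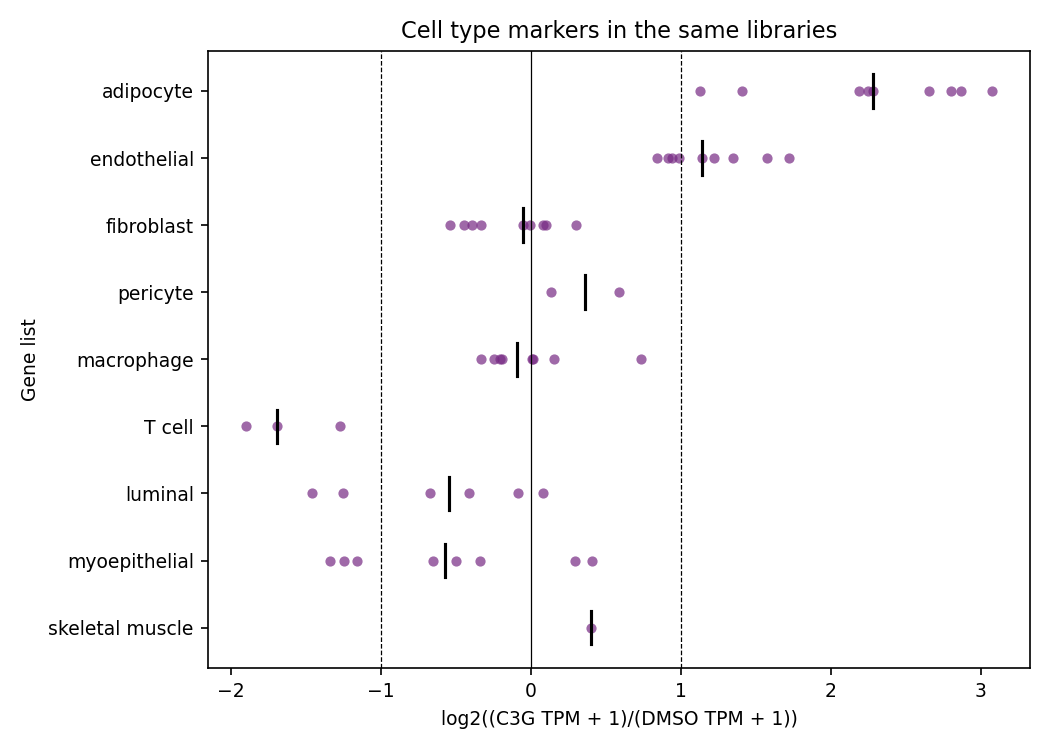
Log2 ratio of C3G over DMSO for cell type markers that reached 5 TPM, by list, with 1 point per gene and a black bar at the list's median. Dashed lines mark a log2 ratio of 1 in size. All adipocyte points lie right of the upper line and all 3 T cell points left of the lower line. Markers under 5 TPM in both libraries are not drawn.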

How the data were processed

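RNA was sequenced from 1 mammary tumor library per treatment, prepared with a TruSeq RNA v2 kit per the labels' protocols. Per the submitters' processing notes, the tools were FastQC, MultiQC, Trimmomatic 0.38 and featureCounts 2.0.0 on mm10. The aligner and the counting of reads that fit several genes were not given in the sources used here. The authors deposited TPM for 55536 genes, and all identifiers matched GENCODE M21. Multiplied by exon-union length, 100% of the values above 0 came out as whole reads, within a tolerance of 0.01 read. These reads gave the exact conditional (Clopper-Pearson) intervals of ratios and the Poisson intervals of levels, and no count test was run. Both cover counting error only. They may be too narrow even for that, since reads are not independent molecules. Python 3.11.15, pandas 2.3.3 and scipy 1.17.1 were used. The size calls were tested on simulated data, for which the spread between tumors could not be taken from these libraries. The 10 genes and all lists were chosen with earlier results of these data known. Named genes were the 10 genes, genes that share exon bases with them, H19, and in each list all called genes plus the 3 with the largest log2 ratios in size. Insr, Stc1, Pappa, Airn, Krt5 and Trp63, and the genes at or near 0, fall outside that rule and were named after their values were seen. Promoter sequences are from RefSeq, build GRCm38.p6, and all 10 genes had at least 1 by symbol. The bases after the RefSeq start were sought near the start of the gene's GENCODE M21 transcripts. They were not found there for Igf1r, Igf2r, Igfbp6 and the most upstream start of Igf2. Alternatives covered the pseudocount, the filter on low values, centring, rescaling, gene length, a read minimum and the threshold. One gene of the PI3-kinase, AKT and mTOR list is not reported here and was left out of the list counts.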

Additional observations from a re-analysis of the deposited data

How the results depend on the processing

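Igfbp2 was called lower under all 9 alternatives. At its level and log2 ratio, the filters on low values, the read minimum and the threshold of 1.5-fold could not have changed that call. Under the alternatives that change log2 ratios, that of Igfbp2 ranged from -1.27 to -1.08. The count of IGF axis genes called by size, 1 in the report, was 2 with log2 ratios centred or with the median of the length class subtracted, since Igfbp3 was then called too. It was 3 with a threshold of 1.5-fold, at which Igfbp3 and Igf2r were added and 20.6% of the 12780 genes were called. The count for the genes around the axis, 2 in the report, was 1 with a pseudocount of 5 TPM, where Irs2 was not called, and 7 with the threshold of 1.5-fold. It was 3 with a pseudocount of 0.1 TPM or with TPM rescaled without mitochondrial and the 50 most abundant genes, where Pdpk1 was called higher too. With centring or length subtraction it stayed at 2, but Grb14 took the place of Irs2. Over the 5 alternatives that change log2 ratios, 8 of the 9 IGF axis genes above 0 kept their sign, and Igfbp6 did not under centring. A pseudocount cannot change a sign, so only centring, rescaling and length subtraction could have done so. Igfbp5 ranged from -0.41 to -0.20 and Igf1 from 0.24 to 0.46. Centring moved the share of calls that were higher among all genes to 31.0%, against 41.9% as reported. No paired analysis was possible because each group has 1 library, and for the same reason no library could be left out. Depth limits Igf1r and Igfbp6 most among the 9.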

Other observations

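Airn, the imprinted noncoding RNA gene that runs antisense through Igf2r, has no annotated exon that overlaps an Igf2r exon. That comparison does not cover unspliced Airn RNA, and its part in the Igf2r reads was not tested. Airn was measured at 10.5 TPM in the C3G library (208 reads) and 9.43 TPM in the DMSO library (147 reads). Polr2b, which overlaps 85 exon bases of Igfbp7 on the opposite strand, stood at 40.2 TPM with C3G and 29.9 TPM with DMSO. The kit does not mark strand, so reads from those 85 bases cannot be assigned to either gene by strand.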
